A study of Mus musculus with 16 samples.

Results

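The genes described here are 10 markers and regulators of blood and lymphatic vessels, followed in the mouse bladder with age. They are Vegfa, the receptors Flt1, Kdr, Flt4 and Tek, the endothelial surface and secreted proteins Pecam1, Cdh5 and Vwf, and the lymphatic genes Prox1 and Lyve1. They were chosen by name. Probes were joined to them through the transcript accession printed in the array files, which matched 10 of the 10 genes with 12 probes, out of 26781 genes tested. The bladder body was taken from C57BL/6 mice for which the labels name no allele or treatment. Mature (MAT) mice had an age of 12 months and aged (AGED) mice one of 27 to 30 months, and each age was studied in males and in females. Each of the 4 groups held 4 bladders, with 1 bladder on each of 16 single-colour Agilent arrays. The p-values measure the spread between these bladders. Both AGED groups lay on one row of their slide and both MAT groups on the other, and each sex had a slide of its own, so age and row, and sex and slide, cannot be told apart. The tissue held its defining cells by their markers: the mean of 7 urothelial genes was 5.47 to 6.07 and that of 6 smooth muscle genes 6.61 to 7.21 on the scale described next, with overlapping ranges of MAT and AGED arrays in each sex.

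Blood vessels are lined by endothelial cells, which respond to vascular endothelial growth factors released by the surrounding tissue. VEGF-A acts on the receptor encoded by Kdr, and the receptor encoded by Flt1 binds the same ligand tightly and limits how much of it reaches Kdr. Flt4 encodes the receptor for the lymphatic growth factors, Prox1 the transcription factor that sets lymphatic identity, and Tek the receptor for the angiopoietins, which keep vessels quiescent or make them ready to remodel. In the bladder a dense capillary bed lies beneath the urothelium, with larger vessels and lymphatics in the wall.

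Values are log2 processed signals less the 75th percentile of their array, so that 1 unit is a 2-fold difference and 0 is the signal of a fairly bright probe. Levels of different probes are not compared. A gene was called when limma's Benjamini-Hochberg adjusted p over all genes was under 0.05 and the change at least 2-fold. Directions follow the labels of the arrays. The study's own list of its most changed genes gives Chil3 and others the opposite direction. In the arrays as labelled Chil3, a chitinase-like protein of macrophages, was higher with age by 5.68 on the log2 scale in males and by 2.53 in females. None of the 10 endothelial genes was called in either sex, beside 0.851% of all genes called in males and 0.19% in females. None had an age change that differed between the sexes at an adjusted p under 0.05, beside 0.149% of all genes. In males, 4 of the 10 had a fitted change above 0 and 6 below 0, Prox1 near background among them, with a median of -0.01 on the log2 scale, and in females 5 were above and 5 below, with a median of 0.09. The medians over all genes tested were 0.00 and -0.01.

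**Figure D1:**
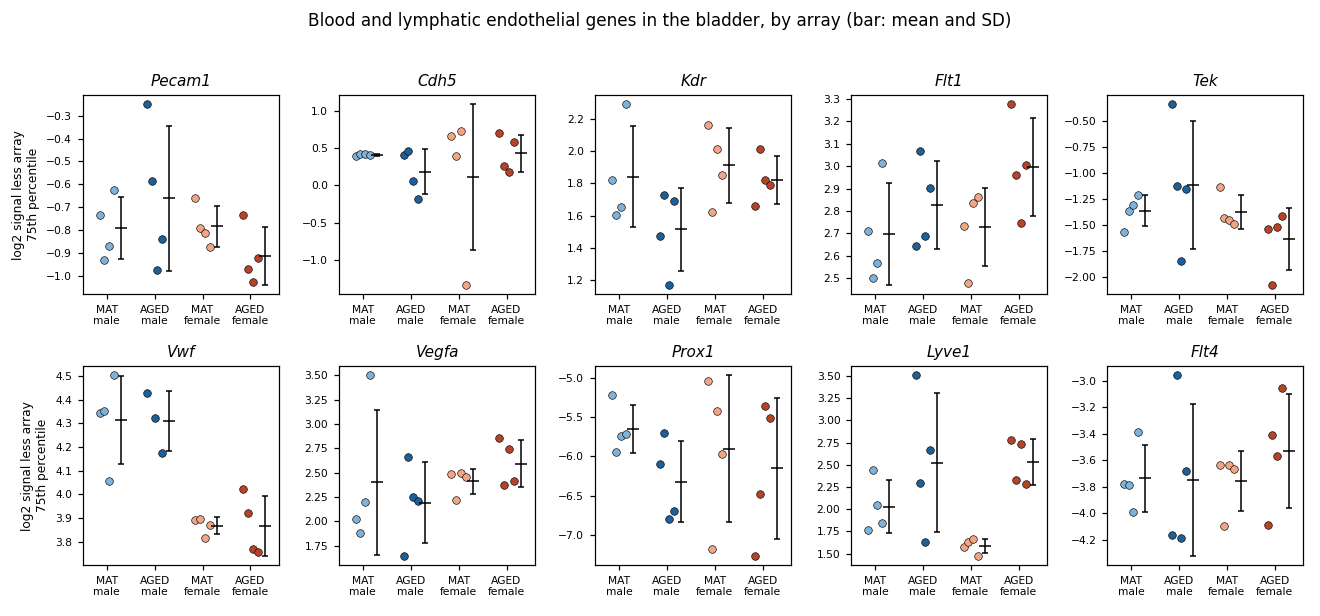
Log2 signal less the array's 75th percentile of the 10 endothelial genes in each of the 4 groups, with 1 point per array and the mean and SD beside the points. Lyve1 was 1.47 to 1.66 in MAT females and 2.28 to 2.78 in AGED females, and Vwf lay higher in males than in females at both ages on this scale, with the flagged AGED male replicate 1 left out and the AGED difference turning to -0.12 before the correction for position on the array.

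Vegfa, the ligand, did not pass the test in either sex. Its tested probe, present in 2 spots, read 1.88, 2.03, 2.20 and 3.50 in MAT males and 1.65, 2.21, 2.25 and 2.66 in AGED males. One MAT male array stood above the rest, and the groups overlapped, with a fitted change of -0.21 ± 0.30 (SE, n = 4 in each group) and an adjusted p of 0.759 by limma. In females it read 2.22 to 2.49 in MAT and 2.37 to 2.86 in AGED, a change of 0.18 (95% interval -0.45 to 0.82). Without MAT male replicate 4 the male change was 0.16 in the other direction. The 2 spots of the tested probe read 1.14 and 2.62 on MAT male replicate 2, a 2.80-fold gap, and were 2.19-fold apart on AGED male replicate 1. The second Vegfa probe read -0.37, -0.16, -0.12 and 0.01 in MAT females and 0.07, 0.17, 0.19 and 0.63 in AGED females. The 4 AGED arrays lay above the 4 MAT arrays (exact two-sided permutation p = 0.0286, the smallest that 4 against 4 can give). The change was 0.42 on the log2 scale, with an adjusted p of 0.569 by limma. Every AGED female array lay above every MAT female array for 5.04% of all genes. Beside Vegfa, the urothelial plaque gene Upk2 differed by -0.45 in males (adjusted p = 0.219) and the smooth muscle myosin Myh11 differed by 0.07 (adjusted p = 0.834). Upk2 had the lowest change of 7 urothelial genes in males, of which 3 lay above 0 and 4 below, with a median of -0.08. Before the correction for position, described below for Lyve1, Upk2 differed by -0.18 and Myh11 by -0.25 in males. The part of urothelial and smooth muscle cells in the Vegfa values was not tested. Fewer cells of a type and less RNA per cell cannot be told apart in these whole-tissue samples.

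The 3 VEGF receptor genes are shown with the 250 bases before their RefSeq transcript start (build GRCm38.p6), because endothelial promoters are read by ETS family factors such as Erg, described further on, and because these 3 genes encode the receptors of one ligand family. Capitals mark the ETS core GGAA or its reverse complement TTCC.
Kdr, chr5:75978456-75978705, minus strand: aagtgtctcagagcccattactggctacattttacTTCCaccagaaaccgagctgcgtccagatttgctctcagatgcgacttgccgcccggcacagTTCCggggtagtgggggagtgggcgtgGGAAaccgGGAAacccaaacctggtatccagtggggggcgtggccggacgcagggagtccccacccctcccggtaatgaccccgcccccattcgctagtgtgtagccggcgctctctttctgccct
Flt1, chr5:147726012-147726261, minus strand: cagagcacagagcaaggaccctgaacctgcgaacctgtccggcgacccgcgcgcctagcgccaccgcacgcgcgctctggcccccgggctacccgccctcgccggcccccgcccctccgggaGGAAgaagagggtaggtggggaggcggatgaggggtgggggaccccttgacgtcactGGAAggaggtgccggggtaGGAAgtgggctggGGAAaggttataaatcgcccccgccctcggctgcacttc
Flt4, chr11:49609429-49609678, plus strand: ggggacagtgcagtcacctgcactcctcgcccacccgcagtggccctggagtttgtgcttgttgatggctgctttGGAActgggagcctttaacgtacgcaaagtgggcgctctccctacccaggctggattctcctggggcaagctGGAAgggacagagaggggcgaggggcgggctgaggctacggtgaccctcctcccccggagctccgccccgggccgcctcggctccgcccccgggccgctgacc
The core occurred 4 times before Kdr, 4 times before Flt1 and 2 times before Flt4, with both strands counted. Of 32851 mouse promoter windows of this length 93.45% held it, with a median of 3 matches, so its presence does not set these genes apart. Promoter windows were found for 6 of the 10 genes. A longer form, CCGGAA or CAGGAA on either strand, overlaps the core. It stood before Kdr, Tek and Vegfa, 3 of the 6 genes, where a match in any window of a gene counted. These 6 genes had 8 windows. Of all single windows 35.06% held the longer form, a share not counted in the same unit as the 3 genes. Pecam1, Cdh5, Vwf and Lyve1 are named only.

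Kdr, the main signalling receptor for VEGF-A, read 1.60, 1.65, 1.82 and 2.29 in MAT males and 1.17, 1.47, 1.69 and 1.73 in AGED males. The AGED values were lower on average but the groups overlapped. The change was -0.33 ± 0.18 (SE) on the log2 scale, with an adjusted p of 0.372 by limma. In females Kdr read 1.62 to 2.16 in MAT and 1.66 to 2.01 in AGED, a change of -0.09 (95% interval -0.47 to 0.28). The second Kdr probe differed by 0.02 in males and -0.04 in females. The tested Kdr probe was printed in 10 spots, which measures how well one array repeats a value. The SD between its unflagged spots was 0.026 to 0.23 on 15 arrays and 0.70 on AGED male replicate 1, where the brightest spot was 5.09 times the dimmest. That array was also the dimmest, with a log2 75th percentile of 9.18, where the remaining AGED males had 9.903 to 10.005. Without it the Kdr change in males was -0.31.

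**Figure D2:**
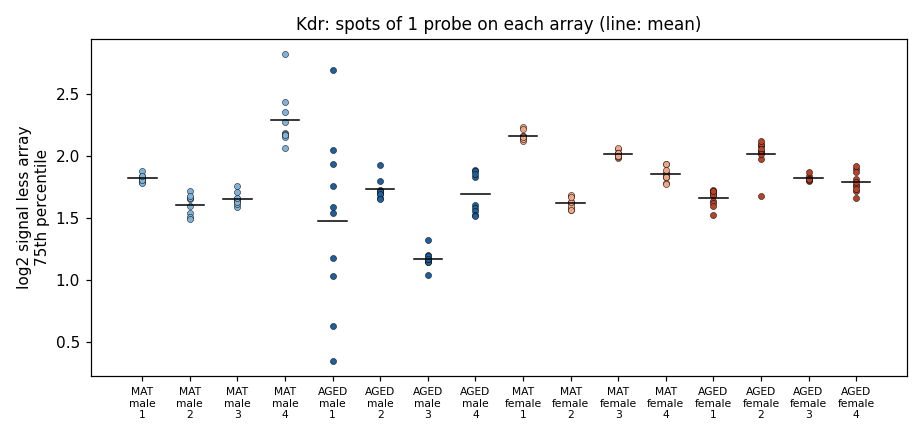
Log2 signal less the array's 75th percentile of every unflagged spot of the tested Kdr probe on the 16 arrays, with the array's mean as a line. The spots run from 0.35 to 2.69 on AGED male replicate 1. On the remaining 15 arrays their SD is 0.026 to 0.23, widest on MAT male replicate 4, where they run from 2.06 to 2.82.

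Flt1, the decoy-like receptor, read 2.48, 2.73, 2.84 and 2.86 in MAT females and 2.74, 2.96, 3.01 and 3.28 in AGED females. Most AGED arrays were above the MAT arrays, with one value within their range. The change was 0.27 ± 0.15 (SE), with an adjusted p of 0.575 by limma. In males Flt1 differed by 0.13 (95% interval -0.20 to 0.46). Flt4, the lymphatic receptor, read -3.99 to -3.38 in MAT males and -4.18 to -2.96 in AGED males, and -4.10 to -3.63 in MAT females and -4.09 to -3.06 in AGED females. All of these ranges overlapped, and the changes were -0.01 in males and 0.23 in females. Within groups, Kdr and Flt4 had a correlation across the 16 arrays of 0.69, Kdr and Flt1 one of 0.59, Flt1 and Flt4 one of 0.46, and Flt1 and Vegfa one of 0.71, after each group's mean was removed. Arrays share their scaling and labelling, so these values describe the arrays.

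Tek, the angiopoietin receptor, read -1.56, -1.36, -1.31 and -1.21 in MAT males and -1.84, -1.15, -1.12 and -0.34 in AGED males. The AGED male values spread on both sides of the MAT values. The change of 0.25 had an adjusted p of 0.644 by limma, and it was -0.01 without AGED male replicate 1. In females Tek differed by -0.26 (95% interval -0.78 to 0.26). Cdh5, the cadherin of endothelial junctions, read 0.39 to 0.42 on the 4 MAT male arrays and -0.19, 0.06, 0.40 and 0.46 on the AGED male arrays. AGED values lay both below and above the narrow MAT range, and the change was -0.23 (adjusted p = 0.778 by limma). The correction for position, described below for Lyve1, moved this spot by 0.01 to 1.54 on MAT male arrays. On AGED male arrays it moved the spot by -0.11 to 1.24. Before that correction the male change was 0.09 (adjusted p = 0.933 by limma). In MAT females Cdh5 read 0.39, 0.66 and 0.73 on 3 arrays and -1.34 on replicate 4. The female change was 0.32 with that array and -0.16 without it, so the direction rests on 1 array. Pecam1, an adhesion protein of endothelial cells, platelets and leukocytes, read -0.93 to -0.63 in MAT males and -0.97 to -0.25 in AGED males, a change of 0.13. That change was -0.0078 without AGED male replicate 1, where the 2 spots of the probe lay 2.87-fold apart. In females Pecam1 read -0.87 to -0.66 in MAT and -1.03 to -0.73 in AGED, a change of -0.13. Neither the male nor the female change passed the test.

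Vwf, the secreted factor that tethers platelets to injured vessel walls, had an age change in males that depended on the correction for position described next for Lyve1, and read higher in males than in females, a direction that turned in AGED mice before that correction and with normexp. It read 4.06, 4.34, 4.35 and 4.50 in MAT males and 4.17, 4.32 and 4.43 in AGED males, where the spot of replicate 1, at 3.69, was left out for its outlier flag. In MAT females it read 3.82 to 3.89 and in AGED females 3.76 to 4.02. Every unflagged male value lay above every female value of the same age, and the flagged one lay below all 4 AGED females. The age changes were -0.00 in males (95% interval -0.28 to 0.27) and -0.00 in females (95% interval -0.25 to 0.25). In males the change was -0.60 (adjusted p = 0.104) before the correction for position and -0.57 (adjusted p = 0.104) with normexp. Males exceeded females by 0.45 ± 0.12 (SE) in MAT mice, with an adjusted p of 0.119 by limma, and by 0.44 ± 0.13 in AGED mice, with an adjusted p of 0.0437, both under the 2-fold limit. Over the alternatives the adjusted p of the AGED difference ran from 0.0249 to 0.746. None of the 10 genes was called between the sexes, beside 0.164% of all genes in MAT mice and 3.11% in AGED mice. Of all genes, 14% were higher on every male array than on any female array in MAT mice and 8.93% in AGED mice. Of the 10 genes these were Vwf and Lyve1 in MAT mice and Vwf in AGED mice, the latter over 3 of the 4 male arrays. The AGED difference was -0.12 on the signal before Feature Extraction's correction for position on the array. That correction raised the Vwf spot by 0.21 to 1.07 in AGED males and moved it by -0.13 to 0.06 in AGED females. Of the platelet genes, Pf4 was higher by 0.60 in AGED females (adjusted p = 0.350) and differed by -0.09 in males. Itga2b, well above background on 1 of the 4 AGED female arrays, is given no change. Of 7 platelet and megakaryocyte genes, none was called with age in either sex. The median change in females was 0.12, and Pf4 had the highest. Between the sexes, 7 of the 7 had a fitted level higher in MAT males, with a median of 0.33, where 61.3% of all genes did. In AGED mice 4 of the 7 did, with a median of 0.10, where 59.3% of all genes did, and 1 was called. The part of platelets in the Vwf values was not tested.

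**Figure D3:**
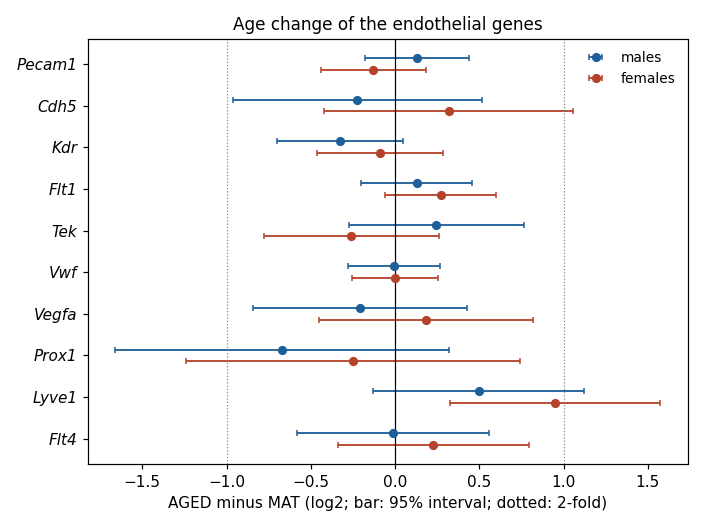
Fitted AGED minus MAT change (log2) of the 10 endothelial genes in males and females, with 95% intervals and dotted lines at 2-fold. The interval of Lyve1 in females, 0.32 to 1.57, is the one of the 20 that does not reach 0, and Prox1 lay near background on most arrays.

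Lyve1, the hyaluronan receptor of lymphatic endothelium, which some resident macrophages also carry, had the largest fitted age change of the 10 genes in females. It read 1.47, 1.58, 1.63 and 1.66 in MAT females and 2.28, 2.33, 2.74 and 2.78 in AGED females. The 2 groups of females did not overlap, and every AGED array was higher. The change was 0.95 ± 0.29 (SE) on the log2 scale, or 1.93-fold, with an unadjusted p of 0.00561 and an adjusted p of 0.265 by limma, so it did not pass the test. Groups that did not overlap, with AGED higher, were found for 5.04% of all genes in females and for 1 of the 10. Over the alternatives run the female change was 0.87 to 1.03, and its adjusted p 0.0146 to 0.580.

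In males Lyve1 read 1.77, 1.85, 2.05 and 2.45 in MAT and 1.63, 2.30, 2.66 and 3.51 in AGED. The highest value was that of AGED male replicate 1, and the groups overlapped. The change was 0.50 ± 0.29 (SE), with an adjusted p of 0.418 by limma, and 0.17 without replicate 1. Feature Extraction multiplies each spot by a correction for its position on the array. Relative to the array's median, it raised the Lyve1 spot by 0.92 to 1.28 on the log2 scale on the AGED male arrays, and moved it by -0.27 to 0.21 on MAT male arrays and -0.30 to 0.05 on female arrays. The spot lies in row 368 of 384. On the signal before this correction the male change was -0.56 (adjusted p = 0.307) and the female change 0.95 (adjusted p = 0.433). The direction in males turned with this step and that in females did not. The difference of the age change between the sexes, males minus females, was -0.45 (adjusted p = 0.784).

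Prox1, the defining factor of lymphatic endothelium, was well above background on 4 of the 16 arrays, namely 1 MAT male, 2 MAT female and 1 AGED female array and no AGED male array, too few for a fold. Its signals ran from -7.27 to -5.03. Of 9 further lymphatic genes with a probe, 5 had a fitted change above 0 in males and 2 in females, with medians of 0.04 and -0.19, and none was called. Foxc2, a factor of lymphatic valves, differed by -0.62 in males and -0.48 in females, and Sned1 by -0.63 in males. Pdpn, a lymphatic and stromal surface protein, differed by 0.48 in females (adjusted p = 0.560).

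Macrophage genes were measured beside Lyve1. In females 9 of 10 had a fitted change above 0, with a median of 0.61, where 49.1% of all genes lay above 0. Before the correction for position 2 of the 10 lay below 0 in females, and 2 with normexp. In males 5 of 10 lay above 0, with a median of 0.08 that was -0.18 without AGED male replicate 1. None was called in either sex. Timd4, a phosphatidylserine receptor of resident macrophages, read -3.81 to -3.30 in MAT females and -3.06 to -2.50 in AGED females. C1qa, a complement component made by macrophages, read 2.45 to 3.05 in MAT females and 3.101 to 4.20 in AGED females. Both were higher on every AGED female array, by 0.84 and 0.80, with adjusted p of 0.298 and 0.283 by limma. Groups that did not overlap, with AGED higher, were found for 4 of the 10 macrophage genes in females, beside 5.04% of all genes. The folate receptor gene Folr2 was higher on every AGED female array by 0.48 and lower on every AGED male array, with a change of -0.52. In males, groups that did not overlap, with AGED lower, were found for 1 of the 10, beside 3.91% of all genes. Before the correction for position the Folr2 change in males was -0.33 (adjusted p = 0.2045 by limma). In males Cd163, a haemoglobin scavenger receptor, differed by 1.497 (adjusted p = 0.0933), Mrc1 by -0.47 and Csf1r by 0.38. In females Cd163 differed by 0.74, Mrc1 by 0.18 and Csf1r by -0.08. These Csf1r values are of the tested probe, and further Csf1r probes differed by 0.16 and 0.04 in females and by 0.27 and 0.80 in males. Before the correction for position Mrc1 was called in males, with -1.32 (adjusted p = 0.00651 by limma), and Cd163 differed by 0.37 (adjusted p = 0.697). That correction raised the Cd163 spot by 0.87 to 1.42 on AGED male arrays. The part of macrophages in the Lyve1 values was not tested.

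**Figure D4:**
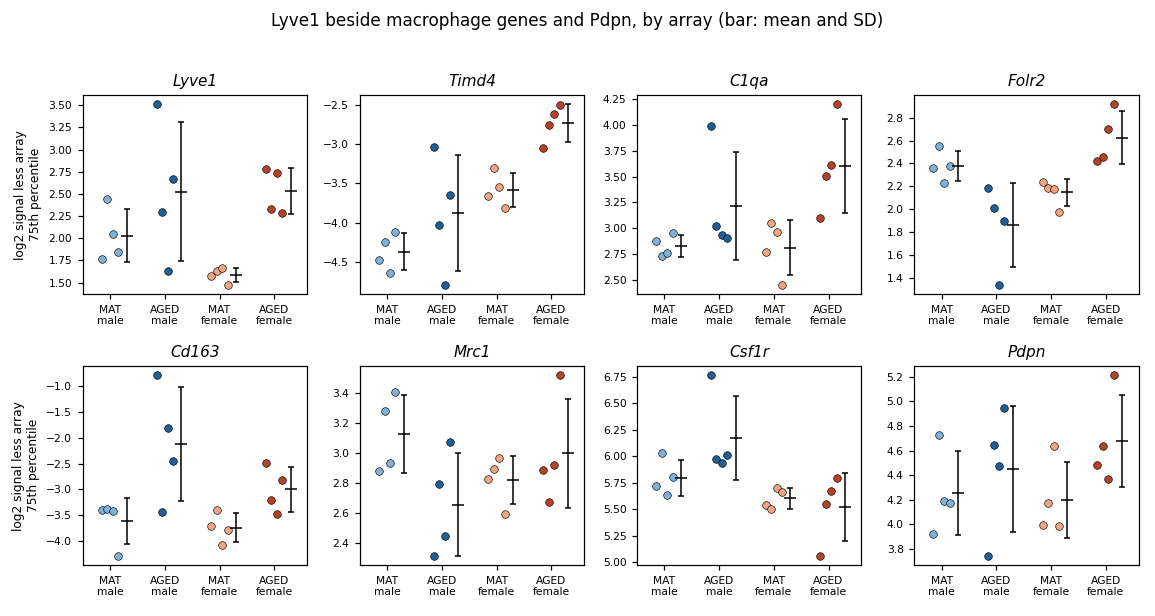
Log2 signal less the array's 75th percentile of Lyve1, 6 macrophage genes and Pdpn in each group, with 1 point per array and the mean and SD beside the points. Lyve1, Timd4, C1qa and Folr2 are higher on every AGED female array than on any MAT female array, and Csf1r overlaps.

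Of 20 further endothelial genes, 18 had a fitted change below 0 in males, with a median of -0.27, where 49.8% of all genes lay below 0. In females 15 of the 20 lay above 0, with a median of 0.08, where 49.1% of all genes did. Without AGED female replicate 1, 9 of the 20 lay below 0 in females and the median was 0.01. The mean of the 20 was 1.64 to 1.76 on the MAT male arrays and 1.12 to 1.56 on the AGED male arrays, and 1.53 to 1.73 in MAT females and 1.56 to 1.80 in AGED females. One gene, Erg, was called. In males 13 of the 20 lay below 0 before the correction for position, and 13 with normexp. Beside them 5 of 6 fibroblast genes lay below 0 in males, with a median of -0.37, and their mean was 4.83 to 4.88 on MAT and 4.07 to 4.97 on AGED male arrays. Of 8 pericyte genes 6 lay below 0 in males, with a median of -0.25 and means of 1.85 to 2.23 in MAT and 1.60 to 1.94 in AGED. The part of these cells in the endothelial values was not tested. Erg, an ETS factor that maintains endothelial identity, read -2.60, -2.49, -2.37 and -2.19 in MAT males and -5.03, -4.18, -3.42 and -2.999 in AGED males. Every AGED male array was lower, and Erg fell by 1.49 on the log2 scale with an adjusted p of 0.0303 by limma. In females it read -2.66 to -2.34 in MAT and -2.81 to -2.06 in AGED, a change of 0.09. The probe was well above background on 3 of the 4 AGED male arrays. The correction for position raised it by 0.34 to 0.98 on AGED male arrays, and before it the change was -2.04 (adjusted p = 0.000419). Before that correction Ramp2 was called too, with -1.65 (adjusted p = 0.00135). The Erg call was lost when any one MAT male array was left out, with adjusted p of 0.0593 to 0.0834, with each sex fitted alone (0.256) and with the methods' t-test after Benjamini-Hochberg adjustment (0.399). Sox18, a vascular transcription factor, differed by -0.88 in males with an adjusted p of 0.0516. Ramp2, which pairs with the adrenomedullin receptor, differed by -0.86 with an adjusted p of 0.0729, and Cldn5, the tight junction claudin of endothelium, by -0.56 in females with an adjusted p of 0.396.

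Of 12 further ligands and receptors of the VEGF, angiopoietin and apelin pathways, 11 had a fitted change below 0 in males, with a median of -0.29, and 7 in females, with a median of -0.03. In males 8 of the 12 lay below 0 before the correction for position, and 8 with normexp. Aplnr, the apelin receptor of sprouting endothelium, was called in males. It read -3.86, -3.05, -2.79 and -2.22 in MAT males and -5.48, -4.65, -4.18 and -4.12 in AGED males, a fall by 1.63 on the log2 scale with an adjusted p of 0.0468 by limma. All 4 AGED male arrays were lower, and the call was made in 12 of 29 alternatives. The probe was well above background on 2 of the 4 AGED male arrays, and with normexp the change was -0.59 (adjusted p = 0.128). In females Aplnr differed by -0.99 (adjusted p = 0.388). Angpt2, the ligand that opposes Tek signalling at remodelling vessels, was lower on every AGED array in both sexes. It read 0.62 to 0.82 in MAT males and -0.44 to 0.56 in AGED males, and 0.69 to 1.18 in MAT females and -0.01 to 0.44 in AGED females. The changes were -0.62 and -0.71, with adjusted p of 0.122 and 0.181 by limma. Groups that did not overlap, with AGED lower, were found for 3.91% of all genes in males and 5.78% in females. The placental growth factor gene Pgf differed by -0.59 in males, and Angptl4 by -1.10 in males and 0.98 in females. None of these changes passed the test. In a limma fit of all kept probes the adjusted p of Angptl4 was 0.185 in males and 0.424 in females. The correction for position moved the Angptl4 spot by -0.43 to 1.03 on AGED male arrays, and before it the male change was -0.90 (adjusted p = 0.116 by limma).

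**Figure D5:**
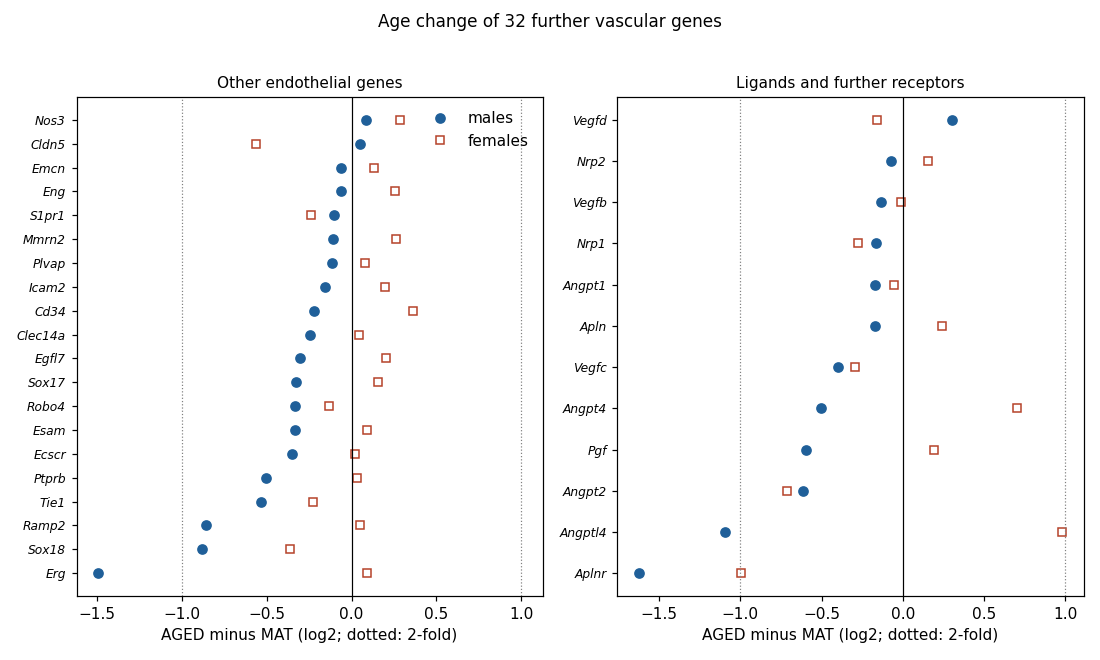
Fitted AGED minus MAT change (log2) in males (filled circles) and females (open squares) of 20 further endothelial genes and 12 ligands and receptors, with dotted lines at 2-fold. In males 18 of the 20 and 11 of the 12 lie left of 0, and Erg and Aplnr pass the 2-fold line and the test.

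Of 10 genes of Notch signalling and of arterial or venous identity, none was called. Jag1, a Notch ligand, read 1.34 to 1.75 in MAT males and 0.50, 0.52, 0.56 and 1.32 in AGED males, a change of -0.84 with an adjusted p of 0.0288 by limma, under 2-fold. Before the correction for position it was -1.39 and called (adjusted p = 0.00277). Hey2, a Notch target of arteries, was well above background on 9 of the 16 arrays and on 1 of the 4 AGED arrays in each sex, so no change is given. Of 8 genes of endothelial adhesion and activation none was called. Thbd, the thrombin receptor thrombomodulin, was higher on every AGED female array, by 0.56 (adjusted p = 0.421). Such a separation in females was found for 1 of these 8 genes, beside 5.04% of all genes. Of 8 pericyte genes none was called, and Pdgfrb, the receptor that draws pericytes to vessels, differed by -0.51 in females (adjusted p = 0.285) and by 0.13 in males. Of 14 hypoxia response genes none was called. Hif1a differed by -0.66 and Adm, which encodes adrenomedullin, by 0.68 in males, with adjusted p of 0.0973 and 0.0913. Before the correction for position Hif1a was called, with -1.67 (adjusted p = 0.000771).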

How the data were processed

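Total RNA of the bladder body was labelled with Cy3 and hybridized to 1-colour Agilent SurePrint G3 arrays. The authors quantified the scans in Feature Extraction (9.1 in the submitters' processing notes). They deposited an intensity for each spot, background-subtracted and corrected for position within the array, together with the intensity before that correction and the flags. The authors also deposited log2 values, of which 99.9% lay within 0.1 of the scaled scanner values once each probe was centred.

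From the processed intensity, log2 values less each array's 75th percentile were computed. Controls and outlier-flagged spots did not enter, which left 399 probe values missing. There was no saturation. Probes well above background on at least 4 of 16 arrays were kept (36972 of 55681, 20982 of them named through RefSeq accessions), and the brightest kept probe stood for a gene. On the 16 arrays 52.3% to 68.2% of probes were well above background. The number of arrays limits the precision. A single limma fit (version 3.58.1, R 4.3.3) of 4 group means used 12 residual degrees of freedom. Matrices and figures were made with pandas 2.3.3 and matplotlib 3.10.9 in Python 3.11.15. The procedure was tested on simulated data. Exact permutation tests were two-sided.

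The 10 genes and the lists were chosen with earlier results of these data known. Named genes were the 10, those called in a list and at most the 3 with the smallest p per list and sex, and fixed companions of Lyve1, Vwf and Vegfa. The macrophage, lymphatic and leukocyte lists each lacked a probe for 1 gene. Alternatives covered scaling, background correction, filters, probes, the methods' t-test, each sex alone, array weights, the replicate number and each array left out. The settings for lists and other named genes, and the signal before the correction for position, were added after seeing the data. Normexp used the median spot intensity. The RT-PCR and pathway software were not repeated.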

Additional observations from a re-analysis of the deposited data

Results flagged for a closer look

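Single arrays stood apart from the other 3 of their group in 8 of 123 groups of values tested (6.5%), where chance alone marks about 1 in 20. The measure is the gap to the nearest array divided by the range of the group. Among the endothelial genes, Cdh5 on MAT female replicate 4 read -1.34 beside 0.39 to 0.73 (gap ratio 0.837). Flt4 on MAT female replicate 2 read -4.10 beside -3.67 to -3.63 (0.923). The tested Vegfa probe on MAT female replicate 2 read 2.22 beside 2.46 to 2.49 (0.861). Tek on MAT female replicate 1 read -1.13 beside -1.48 to -1.43 (0.845). The mean of the platelet and megakaryocyte genes on AGED female replicate 3 was -1.65 beside -1.46 to -1.43 (0.864).

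Of the array measures, the 75th percentile of AGED male replicate 1 was 9.18 beside 9.903 to 10.005 (0.877). The median background of MAT male replicate 4 was 30.5 beside 32 (1), and the median signal of MAT female replicate 3 was 94.4 beside 98.3 to 98.7 (0.904).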

How the results depend on the processing

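A change of sign is listed where it exceeds 1 standard error or touches a call. With normexp, 757 genes were called in males, 466 differed between the sexes and 17 were called between MAT sexes. Before the correction for position, the calls were 1408 in males (152 higher, beside 74 of 228 in the reported fit), 449 for the difference, 21 between MAT sexes and 2163 between AGED sexes (547 higher, beside 331 of 834). Quantile scaling gave 242 higher and 590 lower between AGED sexes. Probes above background on all 16 arrays gave 78, 24 and 520 for the difference, MAT sexes and AGED sexes. No filter gave 552 in males, 18 in females, 7 for the difference and 1362 between AGED sexes. The floor gave 79 between MAT sexes, and averaging probes 25 for the difference. The methods' t-test without adjustment gave 496, 394 and 610 in males, females and MAT sexes, and after Benjamini-Hochberg adjustment 0, 1 and 45 in males, females and AGED sexes. Each sex alone gave 11 and 99 in males and females. Array weights gave 197 in females, 261 for the difference and 612 between MAT sexes. Leaving out 1 array gave 123 to 377 in males, 1 to 120 in females, 6 to 269 for the difference, 17 to 116 between MAT sexes and 612 to 1254 between AGED sexes. The replicate number as a block gave 3 in females and 12 for the difference. Same-numbered arrays of the 2 ages correlated at -0.15 to 0.07 after each group's mean was removed. Arrays of different numbers were not compared, so these values cannot decide whether the numbers pair arrays. The block called none of the 10 genes. The cause of these shifts was not tested.

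Signs that turned were as follows. With normexp, the male age changes were -0.0245 for Tek, 0.0722 for Prox1, -0.56 for Lyve1, 0.27 for Flt4, 0.0065 for Hey2, -0.0659 for Pdpn, -0.0745 for Pdgfb, 0.15 for Itga2b and -0.27 for Myh11, and the AGED sex difference of Vwf was -0.11. Normexp moved the median of all genes to 0.12 in males and 0.25 between AGED sexes, from 0.00 and 0.09. Before the correction for position, the male changes were -0.0148 for Tek, -0.56 for Lyve1, -0.0653 for Pdpn, -0.0814 for Pdgfb and -0.25 for Myh11, and the AGED sex difference of Vwf was -0.12. Prox1, Hey2 and Itga2b lay near background on many arrays, so their values give no measured fold. With the floor Prox1 was 0.24 in males and 0.26 in females and Hey2 0.0424 in males. Averaged over probes, Pdgfb was -0.15 in males. With array weights Vegfa was 0.13 and Flt4 0.34 in males. With each array left out in turn, the male changes ran from -0.013 to 0.49 for Tek, -0.10 to 0.37 for Thbd and -0.38 to 0.16 for Vegfa, and the female change of Cdh5 from -0.16 to 0.52.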

Other observations

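After each group's mean was removed, the genes whose pattern over 16 arrays was most like that of Cdh5 were Nfe2l1, Il11ra1, Lyrm9, Dnaaf5 and Trak1, with r of 0.96 to 0.93. Without MAT female replicate 4 these values were 0.67, 0.77, 0.54, 0.55 and 0.47, so the likeness rests in large part on that array. Closest to Vegfa were Mmp14 (0.93), Rnf185 (0.89) and Zfp866 (0.89), and closest to Lyve1 were Pla2g4a, Azi2 and Zbtb38, each at 0.90 and at 0.78 to 0.79 without AGED male replicate 1. Prox1, at or near background on most arrays, was most like G0s2 (0.87), Syn2 (0.80) and Ptn (0.80). All arrays share the scaling and labelling.

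All 6 red cell genes had a fitted change below 0 in females, from -0.46 to -0.29, and none passed the test. Across probes printed in 5 or more spots, the median SD between spots of 1 array was 0.12 to 0.33 in AGED males, 0.05 to 0.16 in MAT males and 0.03 to 0.09 in females.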
